A study of Macaca mulatta with 10 samples.

Results

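SOX17, FOXA2, FOXA3, GATA4, GATA6, CEBPA and TBXT are transcription factors that mark steps on the way from pluripotent cells to liver. All probe sets that the platform annotation assigns to these 7 genes were taken, which gave 9 of the 44210 probe sets tested (7 of 13191 genes): 3 for CEBPA and 1 for each other gene. The study used ORMES6, an embryonic stem (ES) line from rhesus macaque, and the rhesus array of Affymetrix, with 10 arrays in 5 groups of 2. The groups were undifferentiated ES cells (ES), differentiated cells of in vitro differentiation stage 2 (IVDS2), the central foci of colonies at that stage (IVDS2-C), the peripheral area of those colonies (IVDS2-P), and differentiated cells of stage 3 (IVDS3). All groups came from the same line. Per the labels, ES cells were kept on mouse embryonic fibroblast feeders in medium with 20% serum replacement and 4 ng/ml bFGF, and differentiating cells shared their culture with hESdF, which are human ES-derived cells that resemble fibroblasts. Signal on an array is that of all cells in a sample, so fewer cells of a type and less RNA per cell cannot be told apart. Nothing in the labels ties the arrays of a group to different cultures, and the p-values then measure only the spread between these samples, which may be technical.

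In the embryo, TBXT (brachyury) marks the primitive streak, from which mesoderm and definitive endoderm arise. SOX17, GATA4 and GATA6 act in definitive and extraembryonic endoderm, and GATA4 and GATA6 also in heart. FOXA factors are forkhead proteins that bind closed chromatin at liver and gut genes, and CEBPA is a leucine zipper factor that drives genes of mature hepatocytes and is used in fat, myeloid and epidermal cells too.

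The deposited values are log2 values centred on the median of each probe set over the 10 arrays, so arrays can be compared at a probe set but no level is known. A value of 1.00 is a 2-fold higher signal than the median array, and a probe set that stays near 0 may be steadily expressed or not expressed at all. Tests were made with limma on all 10 arrays, and a call required an adjusted p below 0.05, by Benjamini-Hochberg over all probe sets, or over all genes for values of whole genes. Log2 fold changes are given with their standard error (SE), and n is 2 arrays per group throughout. The SD over probe sets of the difference between paired arrays was 0.40 for ES and 0.24 to 0.29 for the other groups. The ES label was checked against 13 measured pluripotency markers, of which 10 were lower and 2 higher in IVDS3 than in ES. Over all genes, 28.6% were called lower and 21.1% higher there.

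CEBPA and FOXA3 were the members with a called change, and they changed in opposite directions. By stage 3 all 3 CEBPA probe sets had risen over ES cells, by 5.71 on the log2 scale at the probe set with the widest range, and FOXA3 had fallen by 3.16. At stage 2 the centre of the colonies was above their periphery at that CEBPA probe set and below it in FOXA3. The probe sets of SOX17, FOXA2, GATA4, GATA6 and TBXT were not called in any of the 10 comparisons between groups. With 2 arrays per group this does not show that they were unchanged. GATA6 gave 1.81 ± 0.55 in IVDS2 over ES (adjusted p = 0.0794). In the fit of whole genes SOX17 was called lower in IVDS3 than in IVDS2-C (adjusted p = 0.0456). Against ES cells, limma called 1 of the 9 probe sets in IVDS2 (8.71% of all probe sets were called there), 0 in IVDS2-P (7.55% of all, and 2 members at an unadjusted p under 0.05), 2 in IVDS2-C (21.5% of all) and 4 in IVDS3 (37.8% of all). Between the centre and the periphery it called 2 of 9, against 5.84% of all probe sets. The call for IVDS2 was CEBPA, those for the centre were CEBPA and FOXA3, and those for IVDS3 were the 3 CEBPA probe sets and FOXA3.

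**Figure D1:**
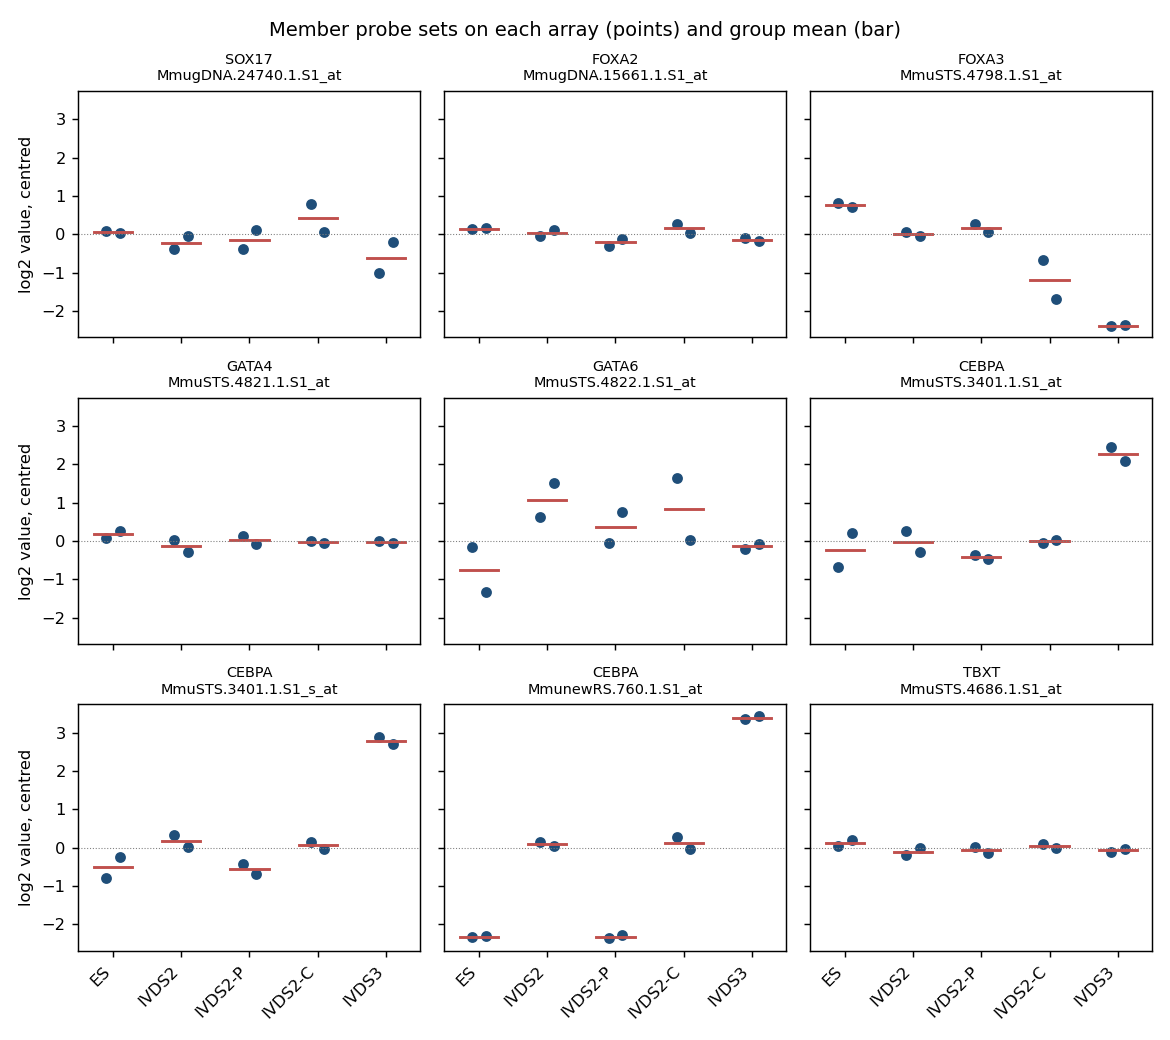
Centred log2 value (vertical axis) of the 9 member probe sets on each of the 10 arrays (points) with the mean of each group (bar), for ES, IVDS2, IVDS2-P, IVDS2-C and IVDS3. CEBPA at probe set MmunewRS.760.1.S1_at stood at 3 separate levels, between -2.35 and -2.28 in ES and IVDS2-P, between -0.04 and 0.27 in IVDS2 and IVDS2-C, and at 3.35 and 3.45 in IVDS3; FOXA3 was lowest in IVDS3.

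CEBPA was read by probe set MmunewRS.760.1.S1_at and by MmuSTS.3401.1.S1_at and MmuSTS.3401.1.S1_s_at, a pair named for a shared source sequence. At MmunewRS.760.1.S1_at the arrays read -2.32 and -2.31 in ES, -2.35 and -2.28 in IVDS2-P, 0.14 and 0.04 in IVDS2, 0.27 and -0.04 in IVDS2-C, and 3.35 and 3.45 in IVDS3. The periphery arrays spanned those of ES, the centre arrays spanned those of IVDS2, and IVDS3 lay above every other array. Its log2 fold change over ES cells was 2.41 ± 0.13 (SE) in IVDS2 (5.30-fold, adjusted p = 4.42e-05), 2.43 ± 0.13 in IVDS2-C (5.38-fold, adjusted p = 1.54e-05) and 5.71 ± 0.13 in IVDS3 (52.5-fold, adjusted p = 3.37e-08). For IVDS2-P against ES it was 0.00 ± 0.13, with a 95% interval from -0.30 to 0.31. The centre exceeded the periphery by 2.42 ± 0.13 (5.37-fold, adjusted p = 0.000107). Between neighbouring levels, IVDS3 exceeded IVDS2-C by 3.29 ± 0.13 (adjusted p = 8.01e-07) and IVDS2-P lay 2.40 ± 0.13 below IVDS2 (log2 fold change -2.40, adjusted p = 0.000689). That last comparison called 0.95% of all probe sets and 1 of the 9 members.

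The other CEBPA probe sets rose at stage 3 but gave no call at stage 2. MmuSTS.3401.1.S1_s_at read -0.78 and -0.23 in ES, -0.43 and -0.69 in IVDS2-P, 0.33 and 0.02 in IVDS2, 0.15 and -0.02 in IVDS2-C, and 2.88 and 2.72 in IVDS3. Its IVDS3 arrays stood apart from all others, and its ES and IVDS2-P arrays overlapped and lay below the IVDS2 and IVDS2-C arrays. The log2 fold change over ES was 3.30 ± 0.20 in IVDS3 (9.87-fold, adjusted p = 3.68e-06), 0.68 ± 0.20 in IVDS2 (adjusted p = 0.0676) and 0.57 ± 0.20 in IVDS2-C (adjusted p = 0.0709). Without ES replicate 2 the values for IVDS2 (0.96, adjusted p = 0.0259) and IVDS2-C (0.84, adjusted p = 0.0189) were called. Its excess in the centre over the periphery, 0.62 ± 0.20 (adjusted p = 0.107), became a call when ES replicate 1 or ES replicate 2 was left out (adjusted p = 0.0472 for each). MmuSTS.3401.1.S1_at read -0.68 and 0.22 in ES, -0.36 and -0.48 in IVDS2-P, 0.25 and -0.29 in IVDS2, -0.04 and 0.04 in IVDS2-C, and 2.45 and 2.09 in IVDS3. Only its IVDS3 arrays stood apart, 2.50 ± 0.28 above ES (5.65-fold, adjusted p = 0.000113). Its excess in the centre over ES was 0.23 ± 0.28, with a 95% interval from -0.40 to 0.86. That interval lay wholly below the interval from 2.13 to 2.73 at MmunewRS.760.1.S1_at, so the probe sets of CEBPA disagreed on the size of the stage 2 change. That difference between probe sets was not itself tested. The mean of the 3 probe sets was called for the centre over ES (1.08 ± 0.17, adjusted p = 0.0022), for IVDS2 over ES (1.10 ± 0.17, adjusted p = 0.00423) and for the centre over the periphery (1.16 ± 0.17, adjusted p = 0.00501). Of the 3, only MmunewRS.760.1.S1_at was called by itself in those comparisons.

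The median of trophoblast and amnion markers was, like CEBPA, higher in IVDS2, IVDS2-C and IVDS3 than in ES and IVDS2-P. In IVDS2-P against ES, 5 of the 17 measured markers were called higher and 2 lower, and 10 had an unadjusted p under 0.05. Their median change was 0.47, against -0.08 over all genes, and 7.55% of all probe sets were called there. From the centre to stage 3, where CEBPA rose further, the 17 measured markers moved in both directions. Of them 4 were called higher, 5 lower and 8 not at all (median -0.05, against -0.03 over all genes, with 14.9% of all probe sets called). ELF5 was among those that rose with CEBPA (2.68 ± 0.23, adjusted p = 7.55e-05). The median of the 17 measured markers on an array lay between -1.41 and -1.25 in ES, between -1.44 and -1.26 in IVDS2-P, between 0.11 and 0.13 in IVDS2, between 0.75 and 0.91 in IVDS2-C, and between 0.52 and 0.79 in IVDS3. Of these markers, 13 were higher and 0 lower in the centre than in the periphery, where limma called 9.59% of all genes, 5.64% higher and 3.95% lower (14 markers had an unadjusted p under 0.05). The list includes GATA3 and TP63, regulators of trophoblast and of stratified epithelium. The 17 measured fibroblast markers had array medians between -0.25 and -0.15 in ES, between -0.06 and -0.04 in IVDS2-P, between -0.18 and -0.08 in IVDS2, between 0.06 and 0.15 in IVDS2-C, and between 0.78 and 0.88 in IVDS3. The part of such cells in the CEBPA result was not tested.

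FOXA3, a forkhead factor of liver and gut, fell with differentiation. It read 0.83 and 0.72 in ES, 0.27 and 0.05 in IVDS2-P, 0.06 and -0.05 in IVDS2, -0.67 and -1.70 in IVDS2-C, and -2.40 and -2.37 in IVDS3. No array of the centre or of stage 3 overlapped those of the other groups, and the paired centre arrays differed by more than those of any other group. The log2 fold change against ES was -1.96 ± 0.27 (SE) in IVDS2-C (3.89-fold lower, adjusted p = 0.00108) and -3.16 ± 0.27 in IVDS3 (8.94-fold lower, adjusted p = 2.42e-05). Both calls held whichever array was left out. In IVDS2 it was -0.77 ± 0.27 (adjusted p = 0.124) and in IVDS2-P -0.62 ± 0.27 (adjusted p = 0.201). Without IVDS2-C replicate 1 or IVDS2-C replicate 2, both became calls, with the SE at 0.14 (adjusted p = 0.0104 for IVDS2 and 0.0314 for IVDS2-P).

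The median of pluripotency markers was also highest in ES and lowest in IVDS3, but not every marker followed it. In IVDS3 against ES, 10 of the 13 measured were called lower and 2 higher (28.6% and 21.1% of all genes). NANOG went the other way, with its lowest arrays in ES and its highest in IVDS3 (1.48 ± 0.19 over ES, adjusted p = 0.00026). KLF4 was the other marker called higher in IVDS3 (1.78 ± 0.27 over ES, adjusted p = 0.000555). The median of the 13 measured markers lay between 0.41 and 1.40 on the ES arrays, between -0.10 and 0.14 in IVDS2, between 0.04 and 0.14 in IVDS2-P, between -0.28 and -0.09 in IVDS2-C, and between -0.64 and -0.60 in IVDS3. Their part in the FOXA3 result was not tested.

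The centre lay below the periphery in FOXA3 by a log2 fold change of -1.34 ± 0.27 (2.53-fold lower, adjusted p = 0.0207). This call was lost without IVDS2-C replicate 2 (-0.83, adjusted p = 0.052), IVDS2-P replicate 1 (-1.23, adjusted p = 0.148) or IVDS2-P replicate 2 (-1.45, adjusted p = 0.0724), with the direction kept each time. With only the 4 arrays compared its adjusted p was 0.0903. Against whole stage 2 cells the centre differed by -1.19 ± 0.27 (adjusted p = 0.047), which was the only member called there (3.49% of all probe sets), and which was lost without any single array other than IVDS2-C replicate 1 (adjusted p from 0.0561 to 0.215). IVDS3 lay below IVDS2-C by -1.20 ± 0.27 (adjusted p = 0.0154), a call lost without IVDS3 replicate 1 (adjusted p = 0.0935) or IVDS3 replicate 2 (adjusted p = 0.0751). IVDS3 also lay below IVDS2 (-2.39 ± 0.27, adjusted p = 0.000193) and IVDS2-P (-2.54 ± 0.27, adjusted p = 0.000111). In those 3 comparisons of IVDS3, limma called 4 of the 9 members each time, against 14.9% (IVDS2-C), 28.6% (IVDS2) and 30.9% (IVDS2-P) of all probe sets. From low to high the order was IVDS3, IVDS2-C, IVDS2, IVDS2-P and ES, and IVDS2 and IVDS2-P overlapped. The IVDS2-P arrays lay below both ES arrays, with a 95% interval of the difference from -1.22 to -0.01, but this was not called.

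**Figure D2:**
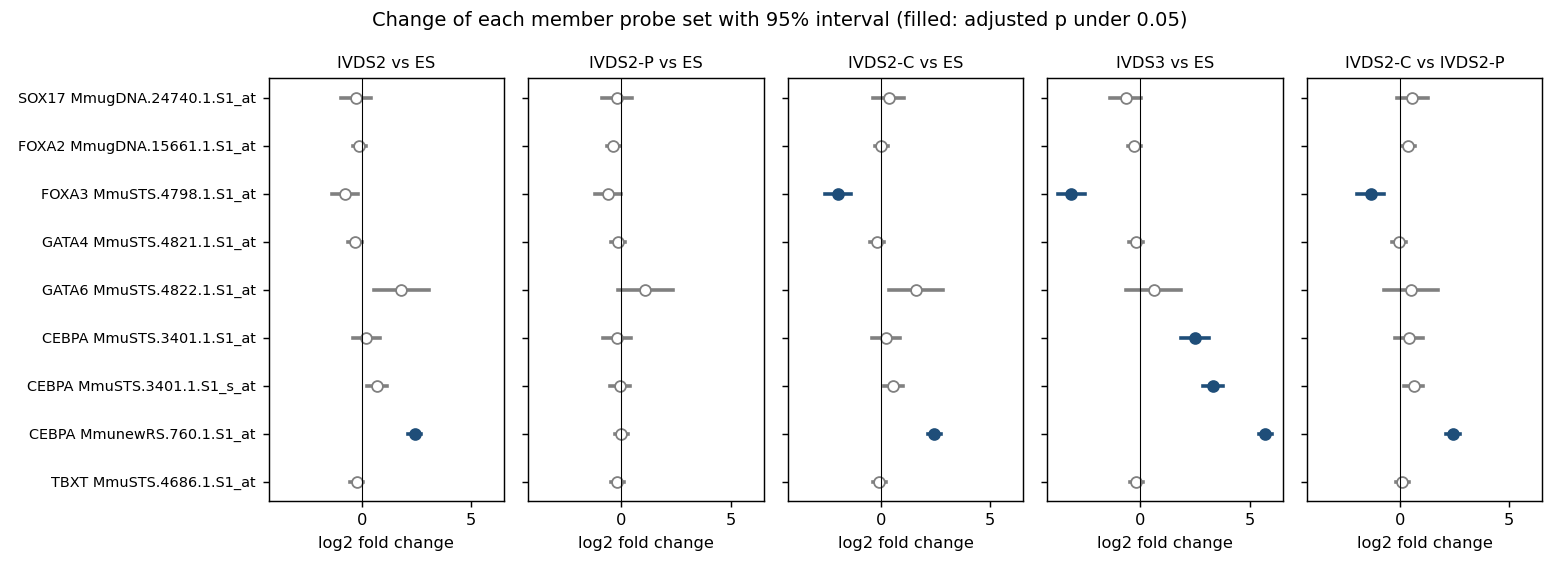
Log2 fold change (horizontal axis) of the 9 member probe sets in the 4 comparisons with ES cells and in centre against periphery, with the 95% interval as a line; filled points have an adjusted p under 0.05. The called points belong to CEBPA, to the right of 0, and FOXA3, to the left, and the interval of GATA6 is the widest in each panel.

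GATA6, a zinc finger factor of endoderm and heart, differed widely between the paired arrays of ES, IVDS2-P, IVDS2 and IVDS2-C. It read -0.15 and -1.34 in ES, -0.04 and 0.75 in IVDS2-P, 0.63 and 1.51 in IVDS2, 1.65 and 0.04 in IVDS2-C, and -0.20 and -0.08 in IVDS3. The ES arrays lay below those of every stage 2 group, but the ES and IVDS3 arrays overlapped. Its group means spanned 1.81, more than those of 91.2% of probe sets. The log2 fold change over ES was 1.81 ± 0.55 in IVDS2 (adjusted p = 0.0794) and 1.59 ± 0.55 in IVDS2-C (adjusted p = 0.0701), neither of them called. The value for IVDS2 became a call when leaving out ES replicate 1 (2.41, adjusted p = 0.0421), IVDS2-C replicate 1 or IVDS2-C replicate 2 (adjusted p = 0.0348 for each). The value for IVDS2-C became one when leaving out ES replicate 1 (2.19, adjusted p = 0.0381) or IVDS2-C replicate 2 (2.39, adjusted p = 0.0232). Centre and periphery differed by 0.49 ± 0.55 (adjusted p = 0.727, 95% interval from -0.75 to 1.73), so these arrays do not settle its direction. IVDS3 against IVDS2 gave -1.21 ± 0.55 (adjusted p = 0.139), and this became a call with only the 4 arrays compared (adjusted p = 0.0197).

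GATA4, which acts beside GATA6 in endoderm and heart, stayed within a narrow range. It read 0.08 and 0.27 in ES, 0.14 and -0.07 in IVDS2-P, 0.04 and -0.28 in IVDS2, 0.00 and -0.04 in IVDS2-C, and 0.00 and -0.06 in IVDS3. Its largest difference from ES was -0.30 ± 0.15 in IVDS2 (adjusted p = 0.28), and the 95% interval for IVDS3 against ES ran from -0.53 to 0.12. A rise of the log2 signal at this probe set by more than 0.12 at stage 3 therefore lies outside that interval. Since no level is known, the probe set may not detect GATA4, and the interval then says nothing of the gene. The range of its 5 group means was 0.30, smaller than that of most probe sets (23.5% had a smaller range, and the median over all was 0.50).

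SOX17, which specifies definitive endoderm, was not called in any comparison of probe sets. It read 0.08 and 0.04 in ES, -0.39 and 0.10 in IVDS2-P, -0.39 and -0.04 in IVDS2, 0.79 and 0.05 in IVDS2-C, and -1.02 and -0.20 in IVDS3. Replicate 1 of IVDS2-C was the highest array and replicate 1 of IVDS3 the lowest, each far from its pair, and the group means spanned 1.03. The lowest adjusted p was that of IVDS3 against IVDS2-C (log2 fold change -1.03 ± 0.31, adjusted p = 0.0563). That value was -1.40 without IVDS2-C replicate 2 and -1.44 without IVDS3 replicate 2. IVDS3 against IVDS2-C was called when limma was fitted to the values of whole genes in place of probe sets (adjusted p = 0.0456). SOX17 has 1 probe set, so its own values were the same in both fits. Against ES, IVDS3 gave -0.66 ± 0.31 (adjusted p = 0.125), called without IVDS3 replicate 2 (-1.07, adjusted p = 0.0402), and IVDS2-C gave 0.36 ± 0.31 (adjusted p = 0.445).

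FOXA2, the forkhead factor of early endoderm and floor plate, read 0.13 and 0.17 in ES, -0.30 and -0.12 in IVDS2-P, -0.04 and 0.10 in IVDS2, 0.27 and 0.04 in IVDS2-C, and -0.10 and -0.18 in IVDS3. The ES arrays lay above those of the periphery and of stage 3. Neither difference was called (-0.36 ± 0.13 with adjusted p = 0.141, and -0.29 ± 0.13 with adjusted p = 0.121), nor was that of the centre over the periphery (0.37 ± 0.13, adjusted p = 0.155). TBXT, the primitive streak factor, read 0.05 and 0.20 in ES, 0.03 and -0.14 in IVDS2-P, -0.20 and 0.00 in IVDS2, 0.10 and 0.00 in IVDS2-C, and -0.10 and -0.03 in IVDS3. Its group means spanned 0.22, a range larger than that of only 11.8% of probe sets. For IVDS3 against ES its 95% interval ran from -0.49 to 0.10. For comparison, the group means of CEBPA at MmunewRS.760.1.S1_at spanned 5.71, more than those of 99.7% of probe sets, and those of FOXA3 3.16, more than those of 97.6%.

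Relatives of the members did not all move with them. In the FOXA family, FOXA1 rose at stage 3 where FOXA3 fell. FOXA1, the third forkhead factor of the group, read -0.83 and -0.90 in ES, -0.70 and 0.04 in IVDS2-P, -0.30 and 0.08 in IVDS2, -0.04 and 0.08 in IVDS2-C, and 1.64 and 1.41 in IVDS3. Its IVDS3 arrays were the highest and its ES arrays the lowest, the reverse of FOXA3. FOXA1 rose by 2.39 ± 0.23 in IVDS3 over ES (adjusted p = 4.07e-05) and by 1.50 ± 0.23 over IVDS2-C (adjusted p = 0.00167). Its rise in the centre over ES, 0.89 ± 0.23 (adjusted p = 0.0177), was lost without ES replicate 2 (adjusted p = 0.0722) or IVDS2-C replicate 2 (adjusted p = 0.0946). FOXA2 was not called beside them.

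In the GATA family the called rises were in GATA3 and GATA2, factors of trophoblast and blood among other tissues, and not in GATA4 or GATA6, a difference between genes that was not tested. GATA3 read -3.96 and -3.04 in ES, -2.49 and -1.72 in IVDS2-P, 0.13 and -0.13 in IVDS2, 1.21 and 1.71 in IVDS2-C, and 0.82 and 1.03 in IVDS3. Its ES arrays were the lowest, those of the periphery came next, and its highest arrays were those of the centre. In IVDS2-P it exceeded ES by 1.39 ± 0.33 (adjusted p = 0.0306), where CEBPA at MmunewRS.760.1.S1_at gave 0.00 ± 0.13. That GATA3 call did not hold without ES replicate 1 (adjusted p = 0.0808), IVDS2-P replicate 2 (adjusted p = 0.208) or either IVDS3 array (adjusted p = 0.0541). It exceeded ES by 4.95 ± 0.33 in the centre (adjusted p = 4.34e-05) and by 4.42 ± 0.33 in IVDS3 (adjusted p = 1.36e-05). GATA2 rose over ES in IVDS2 (1.01 ± 0.22, adjusted p = 0.0165) and IVDS2-C (0.93 ± 0.22, adjusted p = 0.0116) but not in IVDS3 (0.05 ± 0.22, adjusted p = 0.865). The GATA2 calls were lost without ES replicate 1 (adjusted p = 0.0653 and 0.0571), and also without IVDS2 replicate 1 (adjusted p = 0.0856) and IVDS2-C replicate 2 (adjusted p = 0.06) respectively. GATA1 was not called against ES in any group.

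The C/EBP relatives CEBPD and CEBPB were called in the centre as well as at stage 3. CEBPD, an acute-phase factor, read -1.76 and -0.02 in ES, -0.55 and -0.60 in IVDS2-P, 0.02 and -0.75 in IVDS2, 2.17 and 3.33 in IVDS2-C, and 2.82 and 2.79 in IVDS3. The centre and stage 3 formed the high groups, and the ES arrays lay far apart. It exceeded ES by 3.64 ± 0.54 in the centre (adjusted p = 0.00136) and by 3.69 ± 0.54 in IVDS3 (adjusted p = 0.000453), and IVDS3 and the centre differed by 0.05 ± 0.54 (adjusted p = 0.968). CEBPB rose by 1.28 ± 0.25 in IVDS3 over ES (adjusted p = 0.00242). In the centre CEBPB exceeded ES by 1.19 ± 0.25 (adjusted p = 0.00741), but without IVDS2-C replicate 2 it was not called (adjusted p = 0.0592). CEBPE and CEBPG were not called against ES. SOX7 was not called against ES either, and SOX18, an endothelial relative of SOX17, fell by 0.43 ± 0.11 on the log2 scale in IVDS2-C (adjusted p = 0.0158) and by 0.38 ± 0.11 in IVDS3 (adjusted p = 0.0149). The SOX18 call in IVDS2-C was lost without ES replicate 2 (adjusted p = 0.0553), IVDS2-C replicate 1 (adjusted p = 0.0502) or IVDS2-C replicate 2 (adjusted p = 0.0977), and that in IVDS3 without ES replicate 2 (adjusted p = 0.0569) or IVDS3 replicate 2 (adjusted p = 0.0908). EOMES, a T-box relative of TBXT in the primitive streak, gave -0.66 ± 0.17 in IVDS3 over ES (adjusted p = 0.0103), a call lost without IVDS3 replicate 2. Among the other T-box relatives of TBXT, TBX3 rose over ES in IVDS2-C (0.85 ± 0.17, adjusted p = 0.00555). TBX5 was lower than in ES in IVDS2-C (-0.40 ± 0.13, adjusted p = 0.0477), and TBX2 in IVDS3 (-0.44 ± 0.14, adjusted p = 0.0273). TBX6 was not called against ES.

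**Figure D3:**
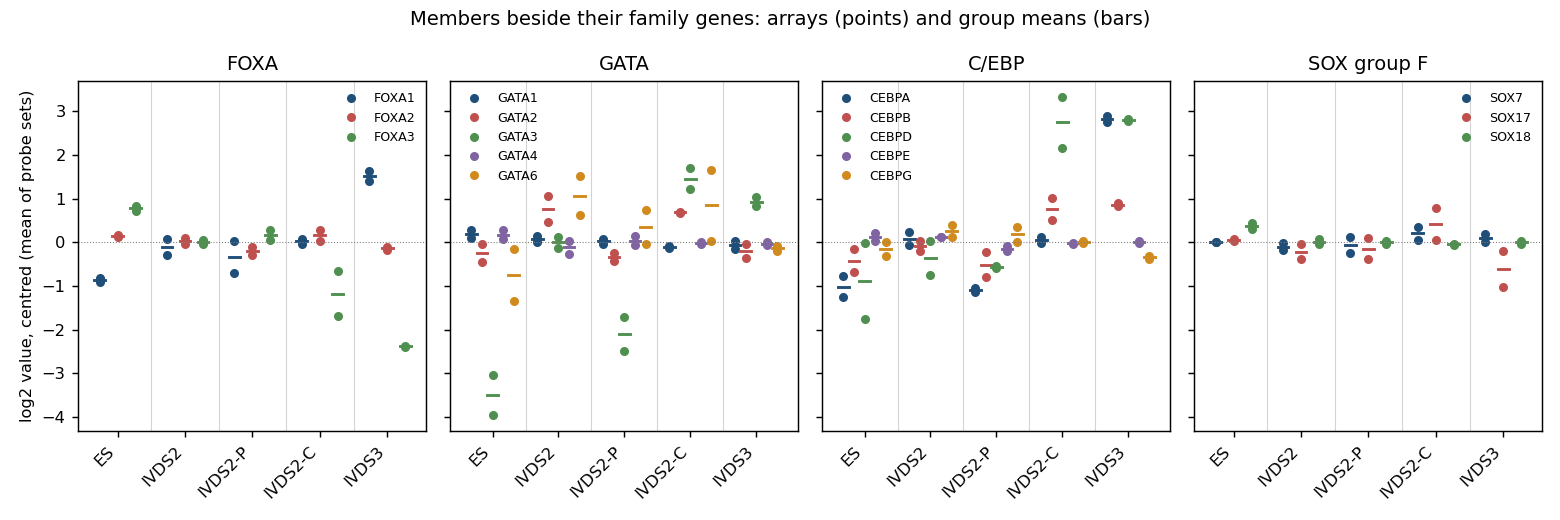
Centred log2 values (vertical axis, mean of a gene's probe sets) of the FOXA, GATA, C/EBP and SOX group F genes measured, on each array (points) with the group mean (bar). FOXA1 was highest where FOXA3 was lowest, in IVDS3; GATA3 and CEBPD spanned wide ranges, while GATA4, SOX7 and CEBPE stayed near 0.

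Genes that work around the members moved in mixed directions. Of 17 measured genes of endoderm specification, 2 rose and 2 fell in the centre against ES (median -0.07, against -0.11 over all genes, of which 30.1% were called). In IVDS3, 2 rose and 6 fell (median -0.31, against -0.13 over all genes, of which 49.7% were called, 21.1% higher and 28.6% lower). The total of 8 was 5 without IVDS3 replicate 1 and 4 without IVDS3 replicate 2. HHEX, a homeobox factor of the liver bud, fell in both (-1.19 ± 0.17 in the centre and -1.47 ± 0.17 in IVDS3), and SMAD3, a transducer of nodal signals, rose in both (1.14 ± 0.17 and 1.30 ± 0.17), with adjusted p of at most 0.00151. CXCR4, a chemokine receptor of definitive endoderm, rose over ES in the centre (2.35 ± 0.39, adjusted p = 0.00261) and as much in the periphery (2.37 ± 0.39, adjusted p = 0.0069), the latter lost without IVDS2-P replicate 2 (adjusted p = 0.0681). It was also called in IVDS2 (1.68 ± 0.39, adjusted p = 0.0242), which was lost when ES replicate 2 (adjusted p = 0.0672) or either IVDS2 array was left out (adjusted p = 0.0782 for replicate 1 and 0.125 for replicate 2). In IVDS3 it gave 1.06 ± 0.39 (adjusted p = 0.0495), a call that held only without ES replicate 1 among the fits that left out an array. Among 19 measured hepatic transcription factors, 3 rose and 4 fell in the centre, and 4 rose and 6 fell in IVDS3 (median -0.18 in each). The largest change was the fall of NR5A2, a nuclear receptor of pluripotent cells and liver, by -2.92 ± 0.24 in the centre (adjusted p = 9.96e-05) and -2.87 ± 0.24 in IVDS3 (adjusted p = 2.28e-05). HNF4G fell beside it (-1.31 ± 0.21 and -1.33 ± 0.21, adjusted p = 0.00194 and 0.000691).

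Liver genes that these factors act on gave no common direction. Against ES, limma called 30.1% of all genes in the centre and 49.7% in IVDS3, and the share of this list that was called was near those. Of 14 measured liver target genes, 3 rose and 2 fell in the centre against ES, but the total of 5 dropped to 3 without ES replicate 1, IVDS2-C replicate 1, either IVDS2-P array or either IVDS3 array, and to 1 without ES replicate 2 or IVDS2-C replicate 2. In IVDS3, where CEBPA was highest, 2 rose and 5 fell (median -0.24), a total of 7 that was 3 without IVDS3 replicate 1. AMBP, a plasma protein precursor, rose by 1.76 ± 0.20 in IVDS3 (adjusted p = 9.78e-05). AFP, the fetal serum protein, fell (-0.64 ± 0.12 on the log2 scale, adjusted p = 0.0022). APOA1, the main protein of HDL, gave -1.84 ± 0.55 (adjusted p = 0.0215), lost without ES replicate 1 (adjusted p = 0.135) or IVDS3 replicate 1 (adjusted p = 0.137).

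Against ES, extraembryonic endoderm genes rose in the centre, and the leading ones rose in the periphery as well. In the centre limma called 6 of 10 measured genes higher and 0 lower (13.7% of all genes were called higher and 16.5% lower, 7 of the list had an unadjusted p under 0.05, and its median was 1.33). They were DAB2, an endocytic adaptor (2.86 ± 0.26, adjusted p = 0.000151), its partner receptor LRP2 (2.32 ± 0.38, adjusted p = 0.00242), FLRT3 (1.68 ± 0.18, adjusted p = 0.000287) and the laminin chains LAMA1, LAMB1 and LAMC1. In the periphery DAB2 (2.60 ± 0.26, adjusted p = 0.00117), LRP2 (2.49 ± 0.38, adjusted p = 0.00497) and FLRT3 (1.54 ± 0.18, adjusted p = 0.00194) rose over ES too, LRP2 without a call once IVDS2-P replicate 2 was left out (adjusted p = 0.0535). Centre against periphery gave 2 of the list higher (LAMB1 and LAMC1) and 1 lower (CITED1), a total of 3 that was 0 without IVDS2-C replicate 2 or IVDS2-P replicate 1. The laminins and DAB2 are also made by other epithelia. SOX7, a defining factor of that lineage, was not called in the centre against ES (0.21 ± 0.16, adjusted p = 0.334). In IVDS3 against ES, where 21.1% of all genes were called higher and 28.6% lower, the list gave 3 higher and 1 lower. Of 15 measured mesoderm and heart genes, 5 rose and 2 fell in the centre, a total of 7 that was 4 without ES replicate 2 or IVDS2-C replicate 2. ISL1, a factor of heart progenitors that also stands among the amnion markers, rose by 3.50 ± 0.25 (adjusted p = 6.26e-05), and HAND1 by 1.59 ± 0.27 (adjusted p = 0.00277). In IVDS3 the list gave 4 higher and 3 lower, a total of 7 that was 4 without IVDS3 replicate 2, and WNT3 rose by 3.28 ± 0.28 (adjusted p = 2.44e-05).

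Between centre and periphery, limma called 5.64% of all genes higher in the centre and 3.95% lower. Of the mesoderm and heart genes, 5 were higher in the centre and 0 lower (5 at an unadjusted p under 0.05). That count was 3 without IVDS2-C replicate 2 and 2 without IVDS2-P replicate 1. ISL1 led with 3.41 ± 0.25 (adjusted p = 0.000278). Of the hepatic transcription factors, 2 were higher and 3 lower, the latter including NR5A2 (-0.96 ± 0.24, adjusted p = 0.0397). Their total of 5 fell to 3 or fewer without any array of IVDS2, IVDS2-C, IVDS2-P or IVDS3, and to 0 without IVDS2-C replicate 2. The NR5A2 call was lost without IVDS2-C replicate 2 (adjusted p = 0.284), IVDS2-P replicate 1 (adjusted p = 0.219) or either IVDS3 array (adjusted p = 0.0673). For endoderm specification limma called 0 of 17 genes (3 at an unadjusted p under 0.05), with 2 called without IVDS2-C replicate 1 and 1 without IVDS2-C replicate 2. AMBP (0.92 ± 0.20, adjusted p = 0.0226) and G6PC1 (0.54 ± 0.11, adjusted p = 0.0205) were the only liver target genes called, both higher in the centre, and the count was 0 without IVDS2-C replicate 2 or either IVDS2-P array.

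**Figure D4:**
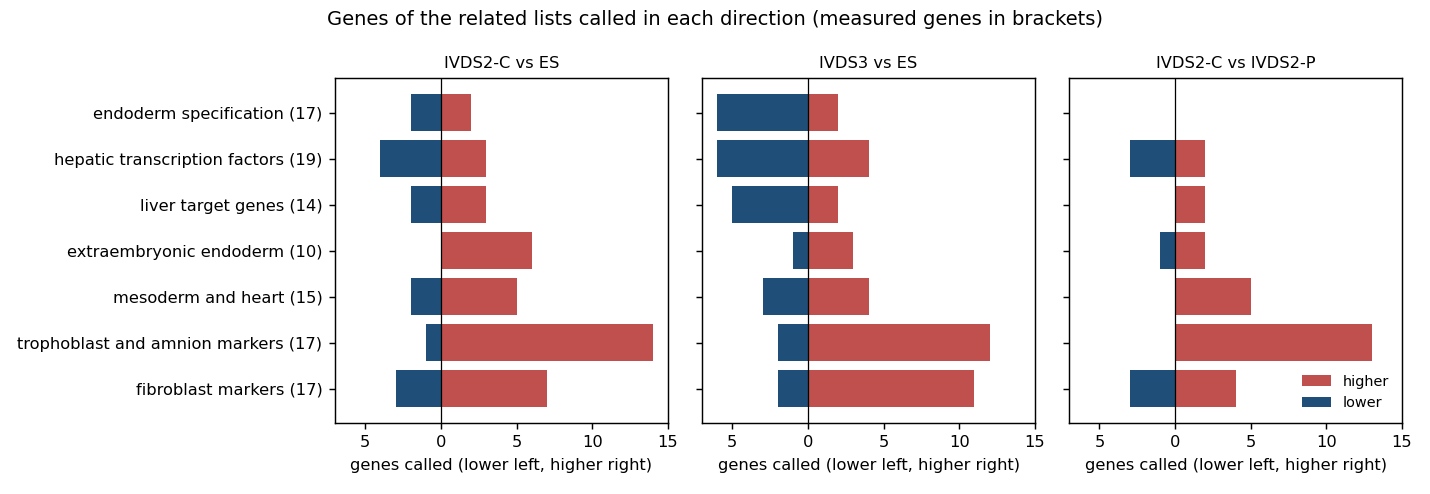
Number of genes of each related list called higher (right) or lower (left) in the centre against ES, in IVDS3 against ES and in centre against periphery, with the number of measured genes beside each list name. Trophoblast and amnion markers gave 14, 12 and 13 higher calls, while hepatic transcription factors and liver target genes were called in both directions against ES.

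Over the 10 arrays, the probe sets of other genes most like each called member were ranked by Pearson's r, as a description only, since the arrays share their groups. For FOXA3 they were those of the nuclear pore gene NUP93 (0.999), RBFA (0.997) and the chromatin remodeller HELLS (0.996). For CEBPA at MmunewRS.760.1.S1_at they were those of the glucocorticoid receptor NR3C1 (0.995), NIBAN2 (0.989) and SAR1B (0.988). At MmuSTS.3401.1.S1_at they were those of GAST (0.991), the integrin ITGA3 (0.991) and TNFRSF14 (0.989), and at MmuSTS.3401.1.S1_s_at LOC713392 (0.993), RABEP2 (0.990) and CLIC5 (0.987). CEBPA at MmunewRS.760.1.S1_at and FOXA3 had an r of -0.90 over the same 10 arrays, and the 3 CEBPA probe sets had r of 0.89 to 0.98 with each other.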

How the data were processed

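The deposited log2 expression values were made by the authors with RMA (version not given), per the submitters' processing notes. Base 2 was inferred from the values. Each of the 44294 probe sets had been centred before deposit (0 had a median over the 10 arrays beyond 1e-05). The 84 control probe sets were left out. Probe sets were named from the platform annotation: 22802 had 1 gene, 316 several and 21092 none. All 9 member probe sets matched the RefSeq table by gene number. Probe sets of a gene were averaged for values of whole genes.

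All 10 arrays were fitted in limma 3.58.1 (R 4.3.3) with a term per group (5 residual degrees of freedom, prior 4.33), with 10 comparisons between groups. On simulated data the fit was tested for IVDS3 against ES only. The members and the 9 gene lists (162 genes, 123 measured) were chosen with earlier results of these data known. Text names all members, measured family genes, up to 3 called genes of each list with the largest change in IVDS2-C and IVDS3 against ES and in centre against periphery, and the 3 genes most like each called member. LAMA1, NANOG, KLF4 and genes named as not called, and SOX7 in the extraembryonic list, were added after values were seen. Sequences of the members were not used here. Alternatives left out each array, set each array's median to 0, used the replicate number as a block, restricted the fit to the 4 arrays of a comparison, or took gene means or a gene's most variable probe set.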

Additional observations from a re-analysis of the deposited data

Results flagged for a closer look

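The change from ES cells differed between groups for members in the following cases, each tested directly. The centre and the periphery differed in FOXA3 (log2 fold change -1.34 ± 0.27 for centre against periphery, limma adjusted p = 0.0207) and in CEBPA at MmunewRS.760.1.S1_at (2.42 ± 0.13, adjusted p = 0.000107). Stages 3 and 2 differed in FOXA3 (-2.39 ± 0.27, adjusted p = 0.000193) and in CEBPA at MmunewRS.760.1.S1_at (3.31 ± 0.13, adjusted p = 6.15e-07), MmuSTS.3401.1.S1_at (2.29 ± 0.28, adjusted p = 0.000306) and MmuSTS.3401.1.S1_s_at (2.62 ± 0.20, adjusted p = 2.08e-05). In each case the arrays of the groups compared did not overlap. These cases were listed because they were called, so the separation of their arrays adds no support. In IVDS2 against ES the arrays did not overlap for 8 of the 9 members, while 1 was called. The share without overlap over all probe sets was not computed.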

How the results depend on the processing

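Of the 23 member changes called (90 tested), 20 kept their call and direction under every alternative run, the other 3 being FOXA3 in the centre against the periphery, in the centre against IVDS2 and in IVDS3 against the centre, and no member change reversed. With only the 4 arrays compared, members called numbered 2 for IVDS2 against ES, 1 for centre against periphery and 0 for centre against IVDS2, and with each array centred on its median 0 for centre against IVDS2 and 3 hepatic transcription factors for centre against periphery; the cause was not tested. Leaving out single arrays, members called ranged from 1 to 3 (IVDS2 against ES), 0 to 1 (IVDS2-P against ES), 1 to 3 (centre against periphery) and 0 to 1 (centre against IVDS2). For lists in the centre against ES, the range was 1 to 4 (liver targets), 4 to 9 (mesoderm and heart) and 5 to 10 (fibroblast). In IVDS3 against ES it was 4 to 9 (endoderm specification), 3 to 7 (liver targets) and 4 to 10 (mesoderm and heart). In centre against periphery it was 0 to 2 (endoderm specification), 0 to 4 (hepatic transcription factors), 0 to 2 (liver targets), 0 to 4 (extraembryonic endoderm), 2 to 7 (mesoderm and heart) and 3 to 7 (fibroblast). The correlation of replicate differences between groups ran from -0.12 to 0.25 and was above 0.1 in 5 of 10 pairs of groups, not in all, so the replicate numbers were not taken as pairing the arrays. With the replicate number as a block, the members called stayed at 1, 0, 2 and 4 for IVDS2, IVDS2-P, IVDS2-C and IVDS3 against ES and 2 for centre against periphery. The small number of arrays and the centred values limit what can be said of members that were not called.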
